A study of Mus musculus with 8 samples.

Results

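The region described here is a stretch of mouse chromosome 7 (build mm10) that holds Ccne1 and 1600014C10Rik. It comprises all peaks of the ATAC-seq table that start between 38000000 and 38350000. These were 5 of the 6425 peaks in the table. The region was chosen because values in this table were lower with myoglobin at a peak near 1600014C10Rik and at its neighbour, so the difference between the groups at the 5 peaks is a description. Calls of a fit over all peaks are listed for them, and nothing is supported with those calls.

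ATAC-seq uses the Tn5 transposase to put sequencing adapters into accessible DNA, so a peak value reads out how open a site is. The cells were tubuloids, epithelial structures grown in Matrigel from dissociated kidney cortex of wildtype mice, and the labels call them primary renal tubular epithelial cells. One group of 4 libraries received vehicle and the other group of 4 received myoglobin, the haem protein set free by damaged muscle, used to injure the tubule cells; both were collected at 12 h, and the labels give neither a dose nor the age or strain of the mice. The series names 4 mice, but which libraries share a mouse is not labelled, so spreads and p-values refer to these libraries.

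Ccne1 encodes cyclin E1, which binds the kinase CDK2 and drives cells from G1 into S phase. Cyclin E-CDK2 phosphorylates the retinoblastoma protein, which then releases E2F transcription factors, and the ubiquitin ligase subunit Fbxw7 marks cyclin E for destruction. Tubule cells that survive an injury are known to re-enter the cell cycle. 1600014C10Rik is the mouse counterpart of human C19orf12, a membrane protein of mitochondria and the endoplasmic reticulum whose mutation causes a neurodegenerative disease with iron in the brain. Its neighbours are Plekhf1, which encodes an endosomal phosphoinositide-binding protein, Uri1, which encodes a prefoldin-like chaperone, and Pop4, which encodes a subunit of ribonuclease P.

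Of the 5 peaks, the table assigned 2 to coding genes, at the promoters of Ccne1 (ENSMUSG00000002068; 38107457 to 38107782, 86 bp from its transcription start site) and Plekhf1 (ENSMUSG00000074170; 38227924 to 38228114, 3 bp from its start). The peak at 38175986 to 38176110 was assigned to a small nuclear RNA gene without a symbol (ENSMUSG00000089230), 623 bp from its start. It lies 7.11 kb upstream of the 1600014C10Rik span, and is called the upstream peak below. The peak at 38201027 to 38201191 was assigned to an antisense RNA gene (ENSMUSG00000108332), 4652 bp from its start. It lies 3.46 kb beyond the end of the 1600014C10Rik span and is called the far-side peak. These peaks thus stand on either side of 1600014C10Rik, 24.9 kb apart. The remaining peak, at 38084829 to 38085229, had no gene in the table. It lies 12.8 kb downstream of the Ccne1 span, within the RefSeq span of the non-coding RNA gene Gm30771. RefSeq (GRCm38.p6) gave spans only here, so exons, introns and UTRs were not analysed here.

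The RefSeq promoter windows of GRCm38.p6 (250 bases before the start and 50 after it, 5′ to 3′ on the gene's strand) are shown for the open promoters of Ccne1 (chr7:38107441-38107740, minus strand) and Plekhf1 (chr7:38227945-38228244, minus strand), and for the first of the 2 windows of 1600014C10Rik (chr7:38182967-38183266, plus strand), which no peak of the table overlapped. Capitals mark GC boxes (GGGCGG), which Sp1-family factors can bind, and CCAAT boxes (CCAAT) on either strand.
Ccne1: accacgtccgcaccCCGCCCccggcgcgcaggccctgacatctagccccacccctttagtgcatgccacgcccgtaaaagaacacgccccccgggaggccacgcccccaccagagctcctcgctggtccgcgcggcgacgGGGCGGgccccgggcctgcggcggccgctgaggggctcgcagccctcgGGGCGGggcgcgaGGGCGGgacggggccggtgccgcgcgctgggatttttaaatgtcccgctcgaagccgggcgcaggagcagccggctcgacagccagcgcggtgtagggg
Plekhf1: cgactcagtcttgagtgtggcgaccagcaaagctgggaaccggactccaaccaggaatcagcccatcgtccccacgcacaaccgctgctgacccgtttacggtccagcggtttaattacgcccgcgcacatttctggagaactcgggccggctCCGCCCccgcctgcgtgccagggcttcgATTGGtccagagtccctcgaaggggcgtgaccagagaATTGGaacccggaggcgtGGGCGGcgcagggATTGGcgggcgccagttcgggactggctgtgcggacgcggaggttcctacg
1600014C10Rik: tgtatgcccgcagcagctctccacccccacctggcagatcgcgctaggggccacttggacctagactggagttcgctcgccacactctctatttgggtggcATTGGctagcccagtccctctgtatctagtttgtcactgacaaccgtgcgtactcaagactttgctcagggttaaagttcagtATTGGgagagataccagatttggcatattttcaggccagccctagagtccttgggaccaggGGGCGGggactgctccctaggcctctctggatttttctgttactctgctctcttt

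The Ccne1 peak covered 284 bases of its promoter window, which was 76.0% G and C, at percentile 97.0 of 32544 mouse promoter windows, and held 41 CpG dinucleotides. It had 4 GC boxes, with first bases at -236, -110, -62 and -49 from the start, and no CCAAT box. The Plekhf1 peak covered 170 bases of its window, which was 65.0% G and C with 31 CpG, 2 GC boxes and 3 CCAAT boxes. The 1600014C10Rik window shown was 54.3% G and C, at percentile 54.7, with 8 CpG, 1 GC box and 2 CCAAT boxes. Its second window (chr7:38183537-38183836) reached 67.7% G and C, with 20 CpG and 1 GC box. Among the neighbours whose promoter windows no peak overlapped, Uri1 had 4 GC boxes, as many as Ccne1, and Pop4 had 0. A GC box was in 35.9% and a CCAAT box in 37.4% of all windows. The E2F-type letters TTTNNCGC, the TATA box TATAAA and the AP-1 letters TGANTCA, each searched on both strands, were in none of the windows of Ccne1, Plekhf1, 1600014C10Rik, Uri1 and Pop4, against 5.20%, 13.6% and 7.79% of all windows. This says only that those letters are not in these windows.

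No peak of the table overlapped the promoter windows of 1600014C10Rik, Uri1 or Pop4. Of 17492 coding genes with a promoter window, 3539 (20.2%) were overlapped by a peak, so a coding promoter without one was the usual case in this table. The 5 peaks were separated from the other peaks of the chromosome by wide gaps, though 205 gaps in the table were larger than the one before them and 493 larger than the one after. The nearest peak before them was at Ankrd27, 2.50 Mb away, and the nearest after them lay 1.22 Mb away, where the median gap between neighbouring peaks was 113 kb over 6405 gaps. Within the region, gaps between peaks ran from 22.2 to 68.2 kb.

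The values are the authors' deposited scaled values, with column totals of 124415 to 126782. The steps between the whole numbers gave estimated reads in peaks of 130568 to 200680 per vehicle library and 67609 to 123453 per myoglobin library, so the myoglobin libraries were the shallower. Of 17 tubule epithelial markers, 5 had a peak (Scnn1g, Cdh1, Pax2, Epcam and Cdh16). The proximal tubule markers Lrp2, Cubn, Slc34a1 and Hnf4a had no peak in the table. Of 28 markers of endothelial, fibroblast and pericyte, immune and podocyte cells, 0 had a peak.

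With myoglobin, the lower values were found at the peaks on either side of 1600014C10Rik and not along the whole region. The upstream and far-side peaks stood at 0.286 and 0.441 times their vehicle level, by reads corrected for depth. The same ratio was 0.942 at the Ccne1 promoter, 1.29 at the Plekhf1 promoter and 1.18 at the peak downstream of Ccne1. The groups overlapped at every peak but the upstream peak, so also at the far-side peak. On the log2(value + 1) scale, the log2 differences of the 5 peaks ran from -2.07 to 0.39. Their median was -0.18, against -0.021 over all peaks. The added number matters at low values: with 0.1 in place of 1 the upstream peak was at -2.98, and with 5 at -1.28.

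**Figure D1:**
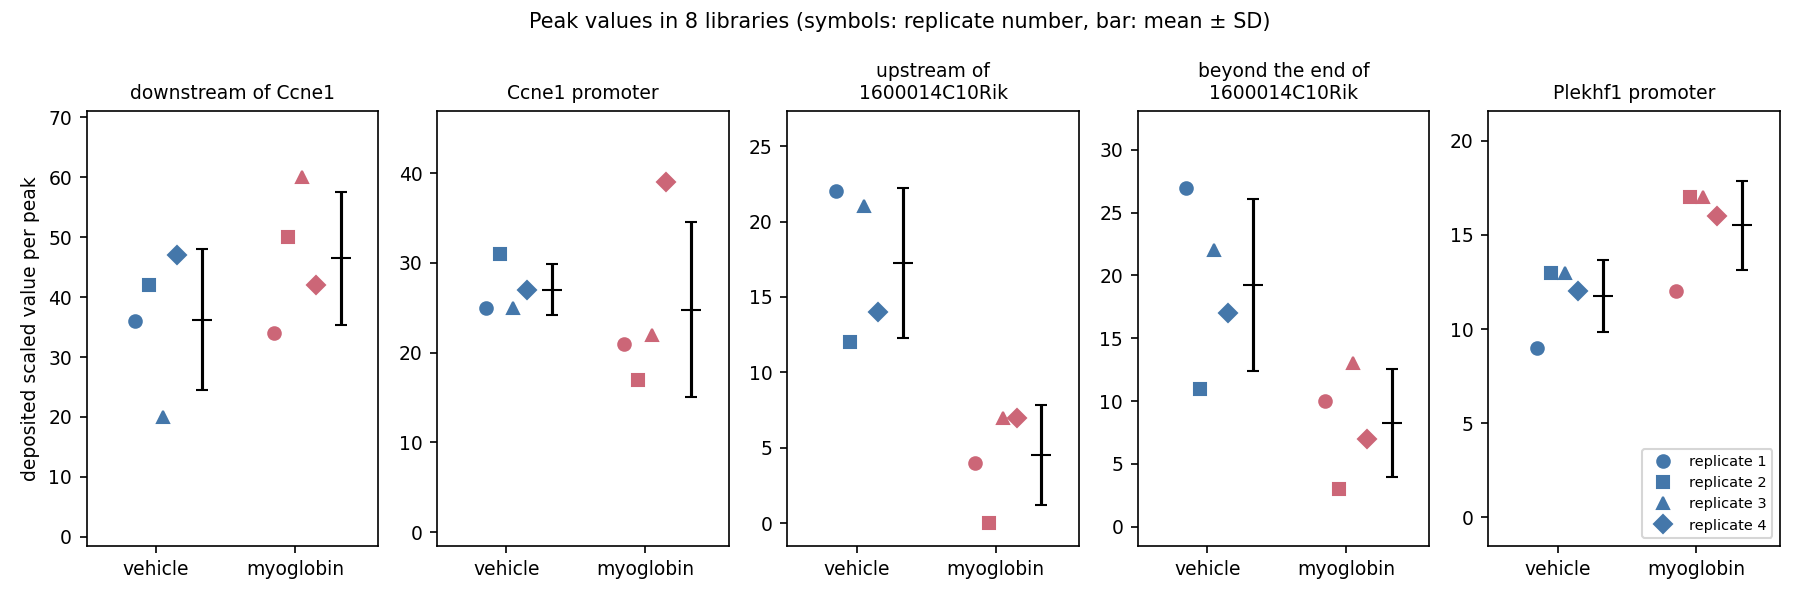
Deposited scaled value (vertical axis, own scale in each panel) at each of the 5 peaks in vehicle (blue) and myoglobin (red) libraries; symbols give the replicate number and bars the mean ± SD of 4. At the upstream peak the myoglobin libraries sit between 0 and 7, below all vehicle libraries at 12 to 22, while the groups overlap at the other 4 peaks.

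The upstream peak had values of 22, 12, 21 and 14 in vehicle replicates 1 to 4, and of 4, 0, 7 and 7 in myoglobin replicates 1 to 4. All myoglobin libraries lay below all vehicle libraries. Means were 17.3 ± 4.99 in vehicle and 4.5 ± 3.32 in myoglobin (SD, n = 4 each). The log2 difference was -2.07 ± 0.41 (SE), and 1 of the 6425 peaks had a lower difference. Behind these values stood an estimated 89 vehicle reads and 15 myoglobin reads. Corrected for the reads in all peaks, the ratio of myoglobin to vehicle was 0.286 (exact binomial 95% counting interval 0.154 to 0.498). Such an interval pools the reads of each group, so it leaves out the spread between libraries. Amplified reads are not independent molecules, so it can be too narrow for counting error as well. The upstream and far-side peaks were chosen for low myoglobin values, so nothing is supported with their intervals.

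The far-side peak had values of 27, 11, 22 and 17 in vehicle replicates 1 to 4, and of 10, 3, 13 and 7 in myoglobin replicates 1 to 4. The groups overlapped here through vehicle replicate 2 at 11 and myoglobin replicate 3 at 13. Means were 19.3 ± 6.85 in vehicle and 8.25 ± 4.27 in myoglobin (SD, n = 4 each). The log2 difference was -1.20 ± 0.32 (SE), at rank 17 from the lowest among all peaks. The estimated reads were 100 in vehicle and 26 in myoglobin, a depth-corrected ratio of 0.441 (counting interval 0.275 to 0.685).

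Both peaks ranked the vehicle libraries in one order, with replicate 1 highest, then replicate 3, then 4, then 2, and myoglobin replicate 2 was the lowest of all 8 libraries at each. The estimated reads of vehicle replicates 1 to 4 were 165997, 200680, 130568 and 171209, and of myoglobin replicates 1 to 4 they were 123453, 82502, 67609 and 120202. The part of depth in this order was not tested. Summed over both peaks, the vehicle libraries held 49, 23, 43 and 31 and the myoglobin libraries 14, 3, 20 and 14. The lowest vehicle sum, 23, was above the highest myoglobin sum, 20, though by less than the spread within either group. The region was chosen for the lower myoglobin values of these peaks, so the separation of their sums is a description only.

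The Ccne1 promoter peak had values of 25, 31, 25 and 27 in vehicle and of 21, 17, 22 and 39 in myoglobin (replicates 1 to 4). Myoglobin replicates 1, 2 and 3 lay below every vehicle library, and myoglobin replicate 4 lay above them all. Means were 27.0 ± 2.83 and 24.8 ± 9.74 (SD, n = 4 each), so the mean difference was smaller than the spread among myoglobin libraries. The log2 difference was -0.18 ± 0.22 (SE). It was -0.42 without myoglobin replicate 4, -0.034 without myoglobin replicate 2 and 0.089 without the 2 shallowest libraries, myoglobin replicates 2 and 3.

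The Plekhf1 promoter peak had values of 9, 13, 13 and 12 in vehicle and of 12, 17, 17 and 16 in myoglobin. Only myoglobin replicate 1, at 12, fell within the vehicle range. The means of 11.8 ± 1.89 and 15.5 ± 2.38 (SD, n = 4 each) gave a log2 difference of 0.37 ± 0.28 (SE), and the depth-corrected read ratio was 1.29 with a counting interval of 0.862 to 1.91. The peak downstream of Ccne1 had values of 36, 42, 20 and 47 in vehicle and of 34, 50, 60 and 42 in myoglobin, with broadly overlapping groups. Its means were 36.3 ± 11.7 and 46.5 ± 11.1 (SD, n = 4 each), the log2 difference 0.39 ± 0.18 (SE) and the read ratio 1.18 (counting interval 0.943 to 1.47). Without vehicle replicate 3, its lowest library, the log2 difference was 0.13.

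**Figure D2:**
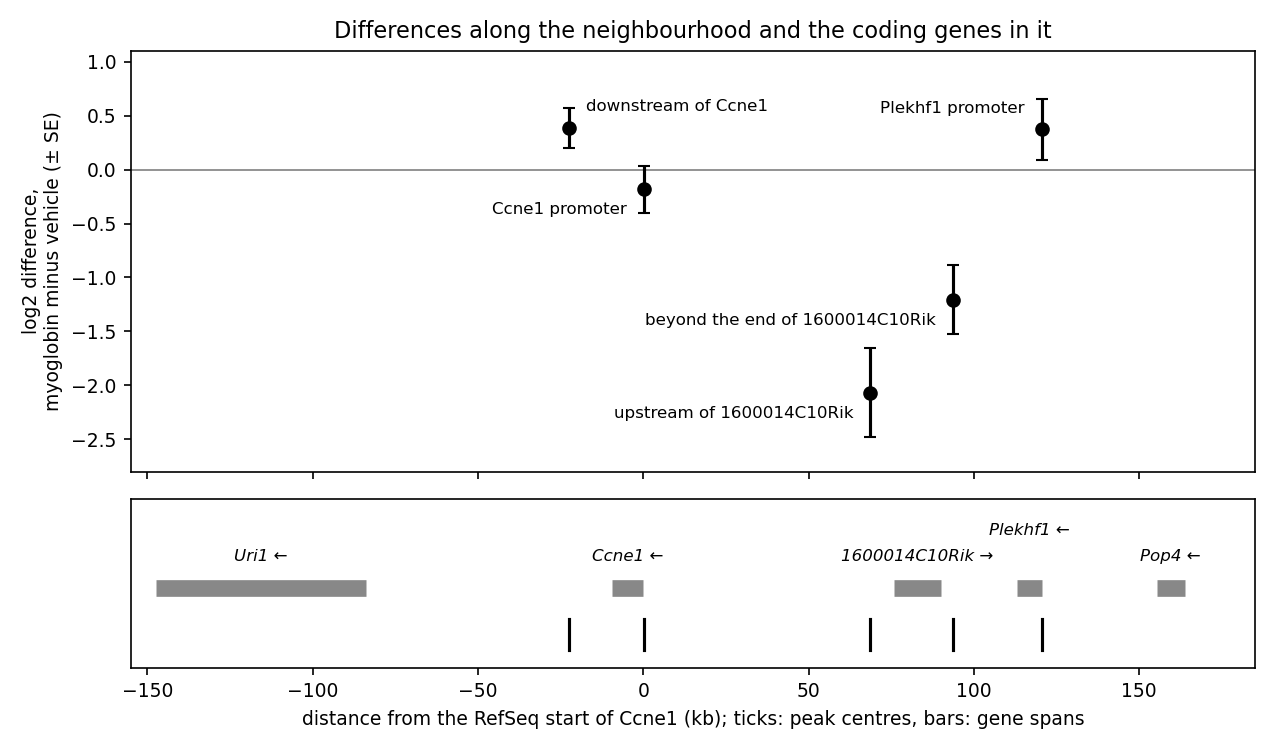
Upper panel: log2 difference of myoglobin minus vehicle (± SE) at the 5 peaks against distance in kb from the RefSeq start of Ccne1; lower panel: spans of the coding genes with their direction, and peak centres as ticks. The peaks at 68.6 and 93.6 kb, on either side of 1600014C10Rik, are at -2.07 and -1.20, and the peaks next to them, at the Ccne1 and Plekhf1 promoters, are at -0.18 and 0.37.

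Summed over the whole region, the groups overlapped. Over all 5 peaks the sums were 119, 109, 101 and 117 in vehicle and 81, 87, 119 and 111 in myoglobin, with means of 111.5 ± 8.23 and 99.5 ± 18.4 (SD, n = 4 each). The 3 peaks other than the pair beside 1600014C10Rik, a grouping made after the values were seen, summed to 75.0 ± 13.6 and 86.8 ± 14.8. The pair held 21.1 to 42.6% of the regional sum in vehicle libraries and 3.45 to 17.3% in myoglobin libraries. These shares also follow in part from the choice of the region for the pair.

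The order of the peaks by mean value per width differed between the groups. This follows in part from the choice of the region for the lower myoglobin values of the pair. Per 100 bp of peak width, the vehicle mean was highest at the upstream peak (13.9), followed by the far-side peak (11.7), the peak downstream of Ccne1 (9.06), the Ccne1 promoter (8.31) and the Plekhf1 promoter (6.18). The libraries of neighbours in this order overlapped, except for the Ccne1 promoter (7.69 to 9.54) and the Plekhf1 promoter (4.74 to 6.84). The narrow upstream peak, 124 bp wide, stood at percentile 97.7 of all peaks by vehicle mean per width, and the far-side peak at 91.5. By vehicle mean not divided by width, they stood at percentiles 55.0 and 61.4 only. Undivided, the vehicle means of the peak downstream of Ccne1 (36.3) and the Ccne1 promoter (27.0) were above those of the pair. In myoglobin the same pair came last, with means of 5.03 per 100 bp at the far-side peak and 3.63 at the upstream peak, after the peak downstream of Ccne1 (11.6), the Plekhf1 promoter (8.16) and the Ccne1 promoter (7.62). Ranges of neighbours overlapped throughout the myoglobin order.

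**Figure D3:**
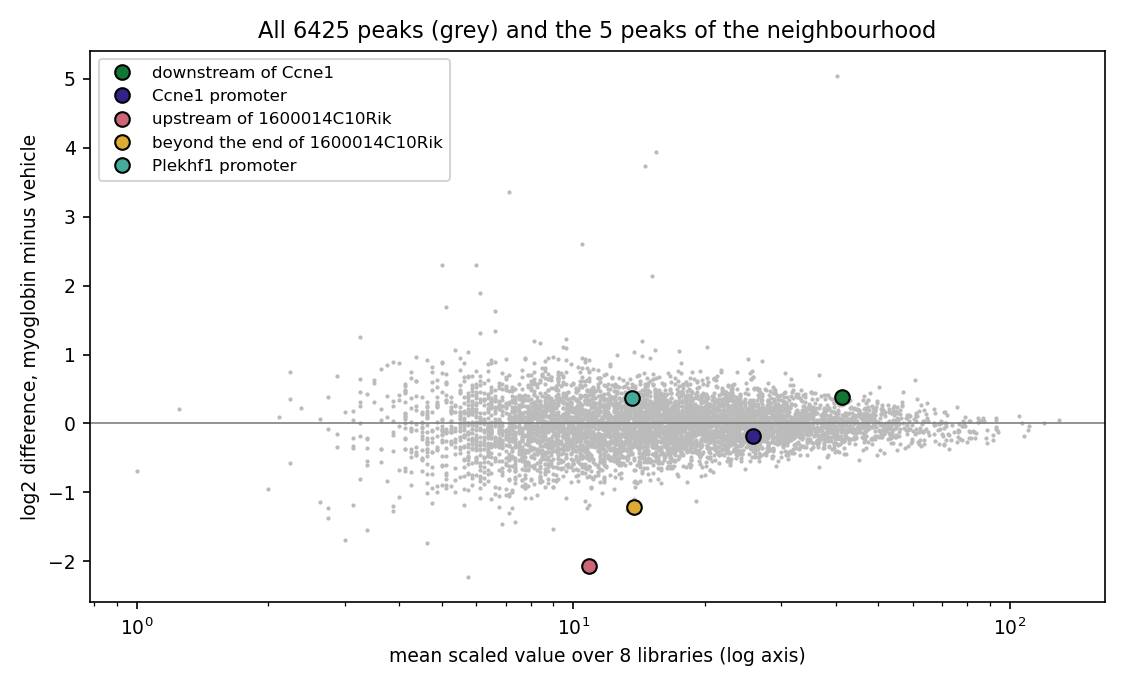
Log2 difference of myoglobin minus vehicle (vertical axis) against the mean scaled value over 8 libraries (log axis) for all 6425 peaks (grey), with the 5 peaks of the region in colour. The upstream and far-side peaks lie at the lower edge, with 0.0156% and 0.249% of all peaks below them, and the other 3 lie within the grey cloud.

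In the limma fit over all peaks with Benjamini-Hochberg adjustment, 1 of the 5 peaks, the upstream peak, was called lower at an adjusted p under 0.05. Of all 6425 peaks, 3 (0.0467%) were called lower, 13 (0.202%) higher and 16 (0.249%) in either direction; since the region was chosen from this contrast, nothing is read from the count, the call or the settings in which it stands. The groups did not overlap at 1 of the 5 peaks, against 195 (3.04%) of all peaks, of which 102 (1.59% of all) were lower. The peak was not called in 4 of 16 other settings: without vehicle replicate 1 (log2 difference -1.94), without vehicle replicate 3 (-1.96), with a pseudocount of 0.1 (-2.98) and without a variance trend (-2.07). With a pseudocount of 5 its difference was -1.28. The far-side peak was called in 2 of the 16, with a pseudocount of 5 and without myoglobin replicate 3.

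Myoglobin replicate 2 weighed most on both peaks. Without it the upstream peak had a log2 difference of -1.37 and the far-side peak of -0.85. Without both shallow libraries, myoglobin replicates 2 and 3, the upstream peak was at -1.49 and the far-side peak at -1.04. In these bulk libraries, a lower value in every cell and a loss of the open site in some cells cannot be told apart.

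**Figure D4:**
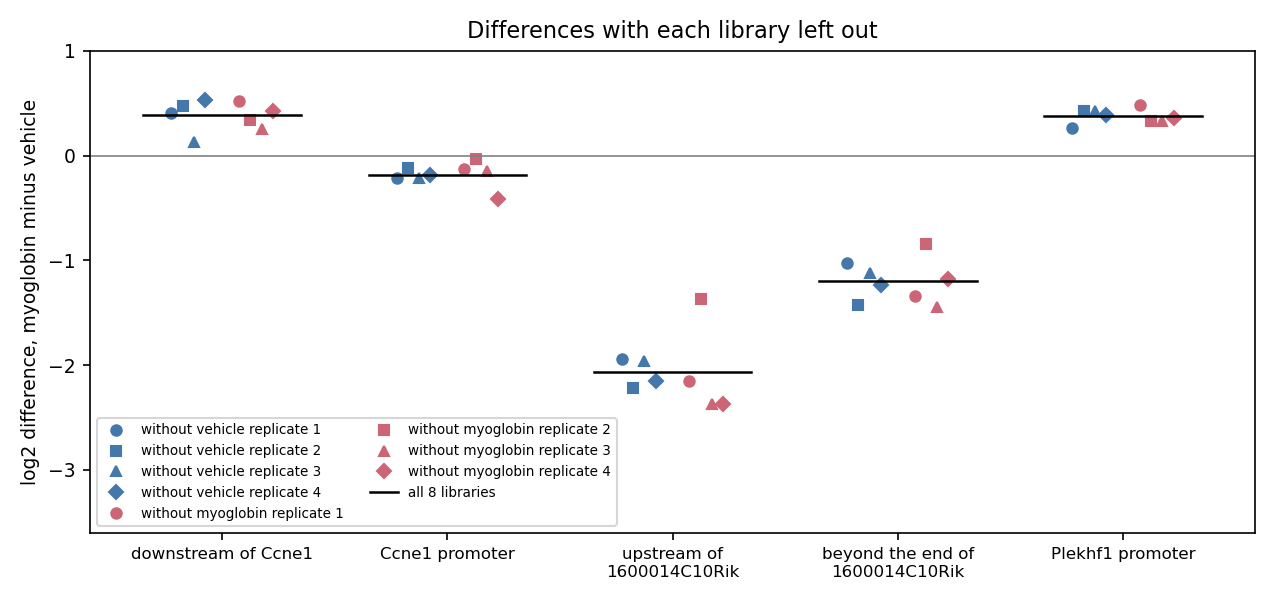
Log2 difference of myoglobin minus vehicle at each of the 5 peaks with all 8 libraries (black line) and with 1 library left out (blue: a vehicle library, red: a myoglobin library; symbols give the replicate number). Leaving out myoglobin replicate 2 moves the upstream peak from -2.07 to -1.37. Both peaks beside 1600014C10Rik stay below 0 in all 8 fits. The region was chosen for their lower myoglobin values, so nothing is read from this.

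Peaks outside the region did not enter its choice. Within 2 Mb on either side there were 6, all of them after the region, and limma called 0 of 6; 1 had an unadjusted p under 0.05 (of all peaks, 488, or 7.60%, did). Their log2 differences had a median of -0.19 and ran from -1.08 to 0.0033. The lowest was the first peak after the region, at 39449284 to 39449402 in a transcribed pseudogene (ENSMUSG00000046372), with values of 6, 7, 17 and 9 in vehicle and of 13, 5, 0 and 5 in myoglobin (log2 difference -1.08 ± 0.47 SE, limma adjusted p = 0.587). The groups overlapped, and without myoglobin replicate 3, the library at 0, the difference was -0.33. The highest, at 39552433 to 39552865, had no gene and a log2 difference of 0.0033 ± 0.19 (limma adjusted p = 0.999). Next to the first came the promoter peak of the zinc finger gene Zfp619 (39517708 to 39518021), with means of 19.5 ± 2.08 in vehicle and 18.0 ± 4.08 in myoglobin (SD, n = 4 each; limma adjusted p = 0.947).

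Before the region, the nearest peaks were at Ankrd27, which encodes an endosomal trafficking protein, and Faap24, which encodes a Fanconi anaemia core complex protein. Ankrd27 (35586107 to 35586321) had means of 23.3 ± 4.03 and 25.5 ± 6.56 (SD, n = 4 each) and a log2 difference of 0.11 ± 0.22 (SE; limma adjusted p = 0.949). Faap24 (35396820 to 35397049) had means of 14.5 ± 4.04 and 11.0 ± 7.39, a log2 difference of -0.50 ± 0.32 (SE; limma adjusted p = 0.741). Neither was called.

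Peaks of the genes that work with Ccne1 in the G1/S transition lay on both sides of 0. The list of 50 genes held cyclins, CDKs, their inhibitors, the RB and E2F families and replication licensing genes. Fbxw7, Cdc25a and Pcna were in it too. Of the 50 genes, 22 had 23 peaks, Ccne1 included. By limma, 0 of 23 were called in either direction, with 3 at an unadjusted p under 0.05. Over all peaks the called share was 0.249%, and 7.60% had an unadjusted p under 0.05, so 0 calls among 23 peaks is near the background. The 3 peaks at an unadjusted p under 0.05, at Tfdp2, Ccna2 and Fbxw7, all had log2 differences below 0. Whether the list as a whole was lower was not tested. Log2 differences were below 0 at 14 (60.9%, against 52.8% of all peaks) and above 0 at 9, with a median of -0.17 (all peaks -0.021). They ran from -0.68 at Mcm5, a subunit of the replicative helicase, to 0.26 at E2f5, and both ends rested on vehicle replicate 3. Mcm5 had values of 6, 5, 16 and 5 in vehicle and 5, 5, 2 and 5 in myoglobin, and without vehicle replicate 3 its difference was -0.32, while without myoglobin replicate 3 it was -0.43. E2f5 had values of 14, 21, 6 and 15 in vehicle and 18, 14, 17 and 14 in myoglobin, and without vehicle replicate 3 its difference was -0.064. Without the 2 shallowest libraries the median was 0.015, without myoglobin replicate 2 it was -0.034 and without myoglobin replicate 3 it was -0.044. Ccne2, the gene of the related cyclin E2, was at 0.25 ± 0.26 (SE; chromosome 4, 11191325 to 11191672), on the other side of 0 from Ccne1.

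The 4 other peaks of this list with the smallest p were at Tfdp2, Ccna2, Fbxw7 and Cdc25a. Tfdp2, which encodes an E2F dimerisation partner, had values of 22, 19, 17 and 22 in vehicle and 12, 23, 6 and 15 in myoglobin (log2 difference -0.61 ± 0.27 SE, limma adjusted p = 0.598; chromosome 9, 96196139 to 96196398). Myoglobin replicate 2 was the highest of all 8 libraries there, and the difference was -0.88 without it and -0.29 without myoglobin replicate 3. Ccna2, the cyclin A2 gene (chromosome 3, 36572057 to 36572324), had values of 35, 27, 43 and 37 and of 30, 21, 26 and 28, with groups overlapping only through vehicle replicate 2 (limma adjusted p = 0.610). Fbxw7 (chromosome 3, 84814262 to 84814635) had means of 31.8 ± 6.29 and 23.5 ± 3.79 (SD, n = 4 each; limma adjusted p = 0.633). Cdc25a, whose phosphatase activates CDK2 (chromosome 9, 109875241 to 109875374), had means of 16.5 ± 3.42 and 11.8 ± 4.11 (SD, n = 4 each; limma adjusted p = 0.710).

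**Figure D5:**
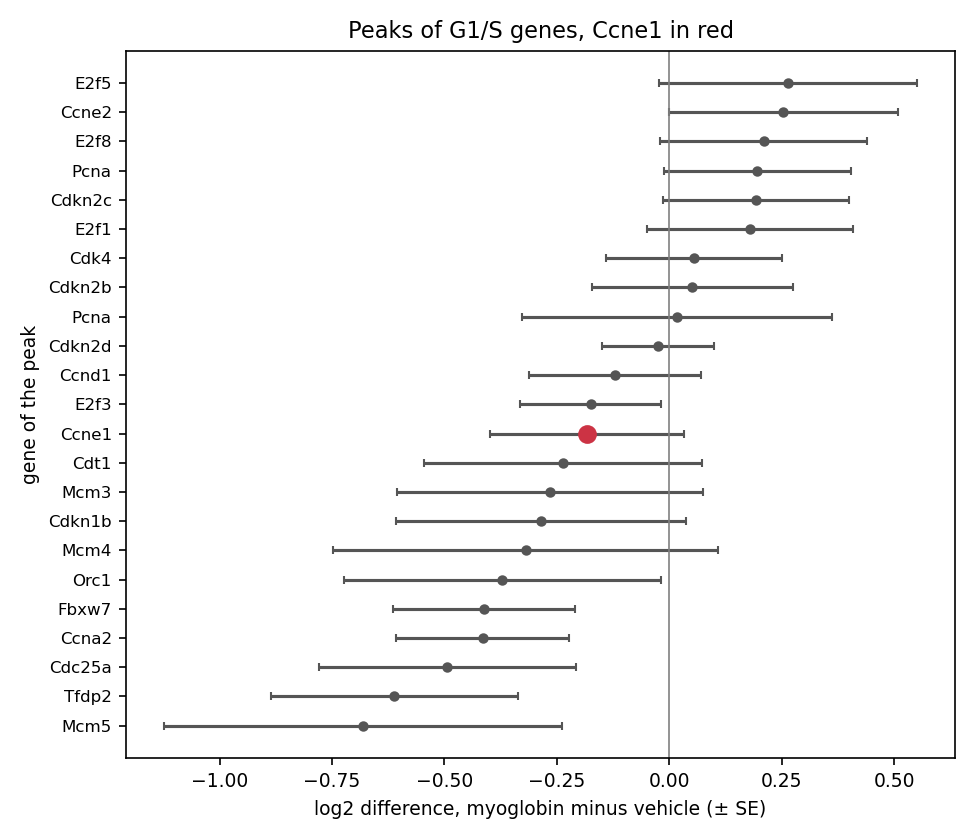
Log2 difference of myoglobin minus vehicle (horizontal axis, ± SE) for the 23 peaks of G1/S genes, ordered by value, with Ccne1 in red. Values run from -0.68 at Mcm5 to 0.26 at E2f5, and Ccne1 is at -0.18; without vehicle replicate 3 these ends are at -0.32 and -0.064.

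Promoter peaks with the most similar profiles over the 8 libraries were found by root mean square distance of log2 values, each centred on its vehicle mean. Closest to the Ccne1 peak were Ube3a (distance 0.117), Gprc5c (0.121) and Tpd52l1 (0.142), against a median of 0.474 over 3917 other promoter peaks. Ube3a, a ubiquitin ligase gene, had values of 27, 26, 24 and 27 in vehicle and 20, 15, 24 and 38 in myoglobin, so that myoglobin replicate 4 was the highest and replicate 2 the lowest, as at Ccne1. For the far-side peak the closest were Pdxp (0.280), Tmem126a (0.366) and Calr3 (0.488), against a median of 1.08. For the upstream peak they were Gpd2 (0.785), Dixdc1 (0.946) and Orai3 (1.02), against a median of 1.75. The region was chosen for the low myoglobin values of this peak, and these enter each of its distances. Distances are therefore not compared between the peaks of the region.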

How the data were processed

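ATAC-seq libraries were made from 50000 cells each, per the labels' protocols. Per the submitters' processing notes, build mm10 was used with DESeq2 1.36.0, featureCounts, Picard 3.0.0, STAR 2.7.10a and Trimmomatic 0.39. The order of the tools, the peak caller, duplicate removal and any Tn5 shift are not given in the sources used here. The deposited values are a score: the authors scaled each column by 1 factor and rounded to whole numbers, as the regular steps between values show, so tests for counts were not used. The design assumed such values. Factors were estimated by maximum likelihood over those steps, and dividing by them gave estimated reads; both this and the fit were tested on simulated data. limma 3.58.1 (R 4.3.3) was fitted to log2(value + 1) over all 6425 peaks with a variance trend and Benjamini-Hochberg adjustment.

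The region, the lists and the motifs were chosen with earlier results of these data known. Named were all peaks of the region, the 2 nearest on either side, the extremes within 2 Mb, the 4 G1/S peaks with the smallest p, and the 3 promoters most similar in profile. The table assigns no peak to 1600014C10Rik, so the peaks nearest to it among coding genes were used for that rule. Gene spans and promoters came from RefSeq GRCm38.p6, and peak coordinates are as deposited. The sequence of the peaks outside promoter windows was not used here. Alternatives were other pseudocounts (0.1 and 5), a filter at a mean of 10, other scalings, leaving out each library, a replicate block, no variance trend, the shallowest libraries left out, and other widths. Read ratios, regional sums and the alternatives for Mcm5 and E2f5 were added after the data were seen.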

Additional observations from a re-analysis of the deposited data

Results flagged for a closer look

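For the 16 peaks followed through the alternatives, 32 sets of 4 libraries were examined, and in 3 of them a single library stood far from the others by Dixon's gap test. At Faap24, myoglobin replicate 3 had a value of 22, with the next library at 8, a gap of 0.875 of the range. At Mcm5, vehicle replicate 3 had a value of 16, with the next at 6 (0.909 of the range), and myoglobin replicate 3 had a value of 2, with the others all at 5, so that any other value would stand apart. Mcm5 was added after the data were seen. Chance flags about 1 in 20 such sets.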

How the results depend on the processing

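The number of peaks called over the whole table, 16, was 7 without a variance trend, 9 with a pseudocount of 0.1, 10 with the replicate number as a block, and 7 to 15 with 1 library left out (7 without vehicle replicate 1, 9 without vehicle replicate 2 and 8 without vehicle replicate 4). It was 21 with a pseudocount of 5 and 19 without the 2 shallowest libraries, and 13 to 16 in the remaining settings with all libraries. With the replicate block the upstream peak was called as well, but nothing is read from this, since the region was chosen from this contrast. Same-numbered libraries showed little common deviation (correlations of deviations over peaks of 0.026, 0.015, -0.013 and 0.0085 for replicates 1 to 4). Counting noise at these read numbers could hide a shared mouse, so the correlations cannot exclude pairing. The labels do not give a pairing, so the main fit used none. Over 17 alternatives the median of the 5 peaks ran from -0.42 without myoglobin replicate 4 to 0.089 without the 2 shallowest libraries. With all libraries and at both ends of this range, it was the value of the Ccne1 promoter peak. The median of the 6 flanking peaks ran from -0.41 without myoglobin replicate 1 to -0.027 without the 2 shallowest libraries. The median of the G1/S peaks ran from -0.22 to -0.0338 with 1 library left out, and reached 0.015 without the 2 shallowest libraries; the cause was not tested. No peak lay within 1 Mb outside the region, so that width gave no value. The 15 myoglobin reads limit the precision at the upstream peak.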

Other observations

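Of 1168 pairs of neighbouring peaks no more than 24.9 kb apart, 1 had log2 differences below -1 at both members, the pair beside 1600014C10Rik. Single peaks with a difference below -1 numbered 40 (0.623%). The distance was taken from this pair and the threshold was set after its values were seen, so the count follows from that choice and is a description only.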
